A study of Mus musculus with 20 samples.

Results

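The 10 genes described here encode inflammatory cytokines, their antagonist and parts of the NF-kB system. They were Tnf, Il1a, Il1b, Il1rn, Il6, Il10, Tgfb1, Nfkb1, Nfkbia and Rel, chosen by gene name from the 45705 genes of the table, and each name occurred once. Their levels in RPKM (reads per gene length, scaled to the size of the library) were compared across 5 populations sorted from the periventricular zone of Swiss Webster mouse pups at postnatal day 5, with 4 libraries each, numbered by batch from 1 to 4. NSC cells were sorted as CD133+ LeX+ CD140a- NG2-. BNAP/GRP1 cells were NG2+ LeX+ CD133- CD140a-, and GRP2/MP3 cells were NG2+ and negative for the other 3 antigens. GRP3 cells were NG2+ CD140a+ CD133- LeX-, and PFMP cells were NG2+ CD140a+ LeX+ CD133-. No treatment or genotype is given for any group, pups of both sexes were pooled by litter, and all RNA was amplified from its polyA tail before sequencing. Only these 4 antigens and a stain for dead cells were used in the sort, and no further antigen served to exclude leukocytes. BNAP/GRP1 and GRP2/MP3 are called here the CD140a- progenitors, GRP3 and PFMP the CD140a+ progenitors, and NSC 3 is the NSC library of batch 3.

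TNF and the IL-1 cytokines are released mainly by activated macrophages and microglia, and their receptors signal through NF-kB. In resting cells, NF-kB dimers are held in the cytoplasm by IkB inhibitors, and on stimulation these are degraded, so that dimers built from subunits such as p50 and c-Rel enter the nucleus and switch on target genes. Those targets include several of the cytokines and the inhibitor itself, which closes a feedback loop. In the brain, microglia are the resident macrophages and a main source of TNF and IL-1.

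The genes lie on separate chromosomes except for the IL-1 family. In GENCODE vM21 on GRCm38, Il1a (ENSMUSG00000027399, chr2:129299610-129309972) and Il1b (ENSMUSG00000027398, chr2:129364570-129371139) are neighbours on the minus strand, and Il1rn (ENSMUSG00000026981, chr2:24336853-24351494, plus strand) is on the same chromosome. Tnf (ENSMUSG00000024401) is at chr17:35199381-35202007, Il6 (ENSMUSG00000025746) at chr5:30013114-30019981 and Il10 (ENSMUSG00000016529) at chr1:131019845-131024974. Tgfb1 (ENSMUSG00000002603) is at chr7:25687002-25705077 and Nfkb1 (ENSMUSG00000028163) at chr3:135584655-135691547. Nfkbia (ENSMUSG00000021025) is at chr12:55489410-55492647 and Rel (ENSMUSG00000020275) at chr11:23736847-23770970. The counts were made over whole genes, so a value does not show which exons were read.

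NF-kB acts on promoters through the kappa B consensus, and the 250 bases before the RefSeq start were available for 8 of the 10 genes (Il10 and Nfkb1 had no entry). The kappa B consensus was found on either strand in 4 of them (Il6, Tgfb1, Rel and Nfkbia), and in 7.25% of all 32851 promoter windows of this length. The AP-1 motif TGANTCA, read on either strand, was found before Il6, Il1a and Il1rn, and in 6.75% of all windows. The TATA box TATAAA, read on the gene's strand, was found before Tnf, Il1a and Il1b, and in 7.59% of all windows. The windows of Il6 and Nfkbia are shown as one cytokine gene and the NF-kB inhibitor gene that hold the kappa B consensus, and that of Tnf as the cytokine gene with the clearest difference between populations. They are written 5′ to 3′ on the gene's strand (RefSeq, GRCm38.p6), with the kappa B consensus in capitals.
Il6, chr5:30012864-30013113, plus strand: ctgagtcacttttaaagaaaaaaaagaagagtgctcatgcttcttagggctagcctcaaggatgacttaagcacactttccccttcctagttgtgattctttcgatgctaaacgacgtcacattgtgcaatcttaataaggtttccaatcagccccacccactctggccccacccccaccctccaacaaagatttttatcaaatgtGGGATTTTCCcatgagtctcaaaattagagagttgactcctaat
Nfkbia, chr12:55492648-55492897, minus strand: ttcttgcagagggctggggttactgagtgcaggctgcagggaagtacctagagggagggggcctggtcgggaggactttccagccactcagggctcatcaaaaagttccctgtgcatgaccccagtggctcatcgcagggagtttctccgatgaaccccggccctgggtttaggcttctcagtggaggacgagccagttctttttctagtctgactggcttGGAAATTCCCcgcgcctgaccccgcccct
Tnf, chr17:35202008-35202257, minus strand: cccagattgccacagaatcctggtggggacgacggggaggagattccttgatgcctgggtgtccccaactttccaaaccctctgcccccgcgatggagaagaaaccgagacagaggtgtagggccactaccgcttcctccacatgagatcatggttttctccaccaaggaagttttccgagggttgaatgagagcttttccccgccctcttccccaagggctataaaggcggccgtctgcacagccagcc
The match began 44 bases before the start of Il6 and 29 bases before that of Nfkbia. The absence of a match in the Tnf window says only that these letters do not occur in it.

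The libraries differed in depth and in content in ways that touch every value below. Relative depth, read from the steps between low values and set to 1 in BNAP/GRP1 1, was lowest in BNAP/GRP1 4 (0.0395) and highest in BNAP/GRP1 3 (1.41). How many reads lay behind a value could not be set, so only relative depth is given. BNAP/GRP1 4 also had the highest median over all genes of the table, 8.30 RPKM, against at most 2.02 RPKM (GRP3 4) elsewhere. Markers of unlike cell types stood near that level there, such as Foxj1 (ependymal, 9.42 RPKM), Cd3e (lymphocyte, 11.1 RPKM) and Scgb1a1 (lung epithelium, 13.6 RPKM). Batch 3 stood apart. Over genes with a mean of at least 10 RPKM, the median log2 difference between 2 libraries of batch 3 was between 0.106 and 0.174, against 0.5 to 2.5 within the other batches, although the 5 libraries carry the labels of 5 populations. The 14 measured alveolar macrophage markers summed to between 1930 and 2222 RPKM in batch 3 and to at most 156 RPKM elsewhere, and the lung epithelium list, mostly the club cell gene Scgb1a1, to between 920 and 1043 RPKM against at most 90.7 RPKM. The microglia list was split in batch 3. Of its 20 genes, 11 that macrophages also express, such as Tyrobp, C1qa, Trem2, Csf1r, Itgam and Spi1, were between 40.7 and 1464 RPKM, and 9, such as Cx3cr1, Tmem119 and Sall1, were between 0 and 2.46 RPKM. P2ry12, among the 9, stood between 0.915 and 1.49 RPKM there, against 64.7 to 1101 RPKM in the CD140a- libraries of batches 1 and 2. The oligodendrocyte progenitor list summed to 15.5 and 15.9 RPKM in GRP3 3 and PFMP 3 and to 2.73 to 3.65 RPKM in the other libraries of batch 3, against 2425 to 3730 RPKM in GRP3 and PFMP of batches 1 and 2. Pdgfra, which encodes CD140a, was 3.41 and 3.84 RPKM in GRP3 3 and PFMP 3 and 1.15 to 2.26 RPKM in the other libraries of batch 3. NSC 3 held 2022 RPKM of the ependymal list. Results below are given with and without batch 3.

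**Figure D1:**
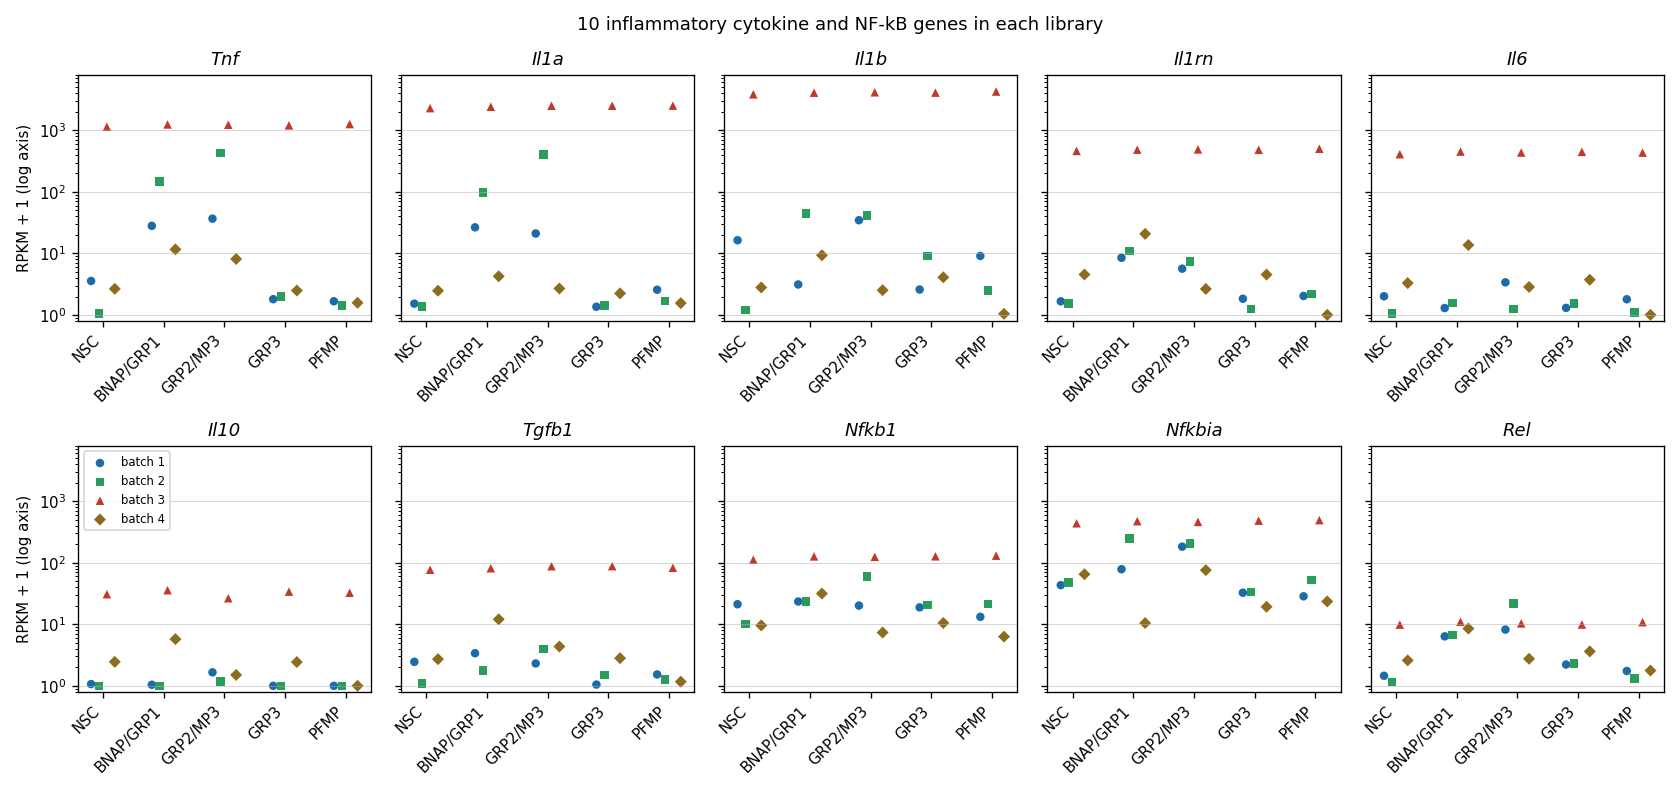
RPKM + 1 (log axis) of the 10 genes in each of the 20 libraries, by population along the x axis, with 1 symbol and colour per batch. Batch 3 lies above the other batches at nearly the same level in all 5 populations for every gene but Rel, and in batches 1 and 2 Tnf and Il1a are high in BNAP/GRP1 and GRP2/MP3.

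Tnf encodes tumor necrosis factor, which acts through receptors that recruit TRADD and TRAF proteins to NF-kB. In batch 1 Tnf stood at 27.1 RPKM in BNAP/GRP1 and 35.8 in GRP2/MP3, against 2.58 in NSC, 0.809 in GRP3 and 0.675 in PFMP. In batch 2 it stood at 145.6 RPKM in BNAP/GRP1 and 426.1 in GRP2/MP3, against 0.987 in GRP3, 0.424 in PFMP and 0.0653 in NSC. The CD140a- progenitors were thus the high populations in both batches, with no overlap with the other populations. In batch 4 Tnf stood at 10.7 RPKM in BNAP/GRP1 and 7.14 in GRP2/MP3, against 1.66 in NSC, 1.5 in GRP3 and 0.580 in PFMP. In batch 3 all 5 libraries held between 1143 and 1266 RPKM (mean 1219 ± 47.7, SD, n = 5), at least 2.68 times the highest value of any other batch. The CD140a- progenitors were the highest in batch 4 too, at a lower level. The value of BNAP/GRP1 4 lay near that library's median of 8.30 RPKM over all genes.

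Il1a encodes IL-1 alpha, which is active as a precursor and signals through the IL-1 receptor. In batch 1 Il1a stood at 25.6 RPKM in BNAP/GRP1 and 20.1 in GRP2/MP3, against 0.529 in NSC, 0.364 in GRP3 and 1.58 in PFMP. In batch 2 it was 97.4 RPKM in BNAP/GRP1 and 405.7 in GRP2/MP3, against 0.388 in NSC, 0.431 in GRP3 and 0.683 in PFMP. Again the CD140a- progenitors did not overlap with the other populations in these batches. In batch 4 Il1a was 3.26 RPKM in BNAP/GRP1 and 1.69 in GRP2/MP3, against 1.49 in NSC, 1.25 in GRP3 and 0.561 in PFMP, which leaves little separation. The value of BNAP/GRP1 4 lay below that library's median of 8.30 RPKM over all genes. In batch 3 it lay between 2296 and 2522 RPKM.

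Il1b encodes IL-1 beta, which caspase-1 cleaves to its active form. In batch 1 Il1b stood at 2.14 RPKM in BNAP/GRP1 and 33.7 in GRP2/MP3, against 15.4 in NSC, 1.60 in GRP3 and 8.12 in PFMP. In batch 2 it stood at 43.7 RPKM in BNAP/GRP1 and 40.1 in GRP2/MP3, against 0.218 in NSC, 8.13 in GRP3 and 1.49 in PFMP. Unlike Tnf and Il1a, its groups overlapped, since NSC 1 and PFMP 1 lay above BNAP/GRP1 1. In batch 4 Il1b was 8.36 RPKM in BNAP/GRP1 and 1.53 in GRP2/MP3, against 1.80 in NSC, 3.1 in GRP3 and 0.0462 in PFMP. Batch 3 held between 3850 and 4272 RPKM, which made Il1b the highest of the 10 genes there, at least 88.0 times its highest value elsewhere. The ratio of Il1b to Il1a was between 1.63 and 1.69 in the 5 libraries of batch 3. In the CD140a- libraries of batches 1 and 2 the same ratio was 0.0836 and 0.449 in BNAP/GRP1 and 1.67 and 0.0988 in GRP2/MP3, so no common ratio held there.

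Il1rn encodes the IL-1 receptor antagonist, which binds the receptor without activating it. In batch 1 Il1rn stood at 7.51 RPKM in BNAP/GRP1 and 4.67 in GRP2/MP3, against 0.669 in NSC, 0.840 in GRP3 and 1.04 in PFMP. In batch 2 it stood at 9.998 RPKM in BNAP/GRP1 and 6.47 in GRP2/MP3, against 0.242 in GRP3, 1.19 in PFMP and 0.544 in NSC. The antagonist thus separated the same populations as Tnf and Il1a in these batches, over a smaller range. In batch 4 Il1rn was 19.8 RPKM in BNAP/GRP1 and 1.66 in GRP2/MP3, against 3.56 in NSC, 3.54 in GRP3 and 0.00593 in PFMP. In batch 3 it lay between 461.8 and 501.8 RPKM.

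The other 3 cytokines were low outside batch 3. Il6 encodes interleukin 6, which signals through IL6RA and gp130, and it ranged from 0.0598 to 2.39 RPKM in batches 1 and 2 and from 409.5 to 451.0 RPKM in batch 3. As a share of Tnf, Il6 was 34.3 to 37.1% in batch 3 and 0.0584 to 6.68% in the CD140a- libraries of batches 1 and 2. Il10 encodes the anti-inflammatory interleukin 10, and it was at most 0.656 RPKM in batches 1 and 2, listed at 0 in 6 of those 10 libraries, and 25.5 to 34.8 RPKM in batch 3. Tgfb1 encodes the latent growth factor TGF-beta 1, and it ranged from 0.0486 to 2.99 RPKM in batches 1 and 2 and from 75.9 to 87.0 RPKM in batch 3. In batch 4 the highest library of all 3 genes was BNAP/GRP1 4, with 12.7 RPKM for Il6, 4.75 for Il10 and 11.1 for Tgfb1, in the shallowest library of the series. The median over all genes in that library was 8.30 RPKM.

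Among the NF-kB genes, Nfkb1 encodes p105, the precursor of the subunit p50. Nfkb1 was present in every library, between 5.30 and 58.8 RPKM in batches 1, 2 and 4 and between 111.0 and 129.2 RPKM in batch 3. Its highest value outside batch 3 was in GRP2/MP3 2, and the populations overlapped in batches 1 and 2.

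Nfkbia encodes IkB alpha, the inhibitor that is itself an NF-kB target. In batch 1 Nfkbia stood at 77.5 RPKM in BNAP/GRP1 and 181.4 in GRP2/MP3, against 42.3 in NSC, 31.6 in GRP3 and 27.5 in PFMP. In batch 2 it stood at 248.4 RPKM in BNAP/GRP1 and 203.2 in GRP2/MP3, against 32.3 in GRP3, 51.5 in PFMP and 46.6 in NSC. The inhibitor had the highest RPKM of the 10 genes in 9 of the 10 libraries of batches 1 and 2, all but GRP2/MP3 2, where Tnf was higher. The CD140a- progenitors were again the high ones, without overlap. In batch 4 Nfkbia was 9.48 RPKM in BNAP/GRP1 and 74.8 in GRP2/MP3, against 64.0 in NSC, 18.2 in GRP3 and 22.5 in PFMP, so BNAP/GRP1 was there the lowest population. In batch 3 it lay between 436.5 and 490.6 RPKM.

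Rel encodes c-Rel, the NF-kB subunit found mainly in blood cell lineages. In batch 1 Rel stood at 5.37 RPKM in BNAP/GRP1 and 7.20 in GRP2/MP3, against 0.457 in NSC, 1.22 in GRP3 and 0.741 in PFMP. In batch 2 it stood at 5.65 RPKM in BNAP/GRP1 and 20.6 in GRP2/MP3, against 0.151 in NSC, 1.30 in GRP3 and 0.319 in PFMP. As for Tnf, the CD140a- libraries lay above all others. In batch 4 Rel was 7.51 RPKM in BNAP/GRP1 and 1.75 in GRP2/MP3, against 1.59 in NSC, 2.63 in GRP3 and 0.773 in PFMP. Rel was the exception in batch 3, where its 8.87 to 9.997 RPKM lay below the 20.6 RPKM of GRP2/MP3 2.

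The comparison of each progenitor with NSC follows the study, which treats the progenitors as descendants of the stem cells. The sorted libraries also held markers of other cells. The ependymal list summed to 5906, 23931 and 11833 RPKM in NSC 1, 2 and 4. The microglia list summed to between 4232 and 15703 RPKM in the CD140a- libraries of batches 1 and 2. The comparison is thus one of sorted gates, and a change along a lineage was not tested. With all 20 libraries and no batch term, 0 of the 10 genes passed the test (limma's moderated test on log2(RPKM + 1), adjusted p under 0.05 over 27614 genes) in any of the 4 progenitors. Of all genes, 1.14% were called in PFMP, 1.05% in GRP3, 1.12% in GRP2/MP3 and 0.76% in BNAP/GRP1. At an unadjusted p under 0.05, 1 of the 10 (Rel in GRP2/MP3) was counted. All 10 genes had a log2 fold change above 0 in BNAP/GRP1 and 9 in GRP2/MP3, against 5 in GRP3 and 3 in PFMP, with medians of 1.00, 0.98, -0.01 and -0.32 beside -0.20 to 0.38 over all genes. The largest values were those of Tnf, at 3.08 ± 2.53 (SE) in BNAP/GRP1 and 3.43 ± 2.53 in GRP2/MP3, followed by Il1a at 2.78 ± 2.95 and 3.06 ± 2.95. Without batch 3 the value of Tnf in GRP2/MP3 was 4.54 ± 1.14 (adjusted p = 0.0514, limma) and that of Il1a 4.03 ± 1.35 (adjusted p = 0.198). Log2 fold changes on this scale understate differences of genes near 1 RPKM.

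The CD140a- progenitors were then compared with the CD140a+ progenitors. Tnf was 3.43 ± 1.79 higher on the log2 scale (adjusted p = 0.895, limma), Il1a 2.87 ± 2.09, Il1rn 1.52 ± 1.59, Rel 1.41 ± 0.57 and Nfkbia 1.19 ± 0.86. The values of the others were 1.37 ± 2.13 for Il1b, 1.02 ± 1.19 for Tgfb1, 0.56 ± 1.73 for Il6, 0.54 ± 0.74 for Nfkb1 and 0.33 ± 1.06 for Il10. None of the 10 passed, as 0% of all genes did (1219 genes and Rel among the 10 at an unadjusted p under 0.05). The 6 direct comparisons of single progenitors also called 0 of the 10 and 0% of all genes, with 84 to 1355 genes at an unadjusted p under 0.05 and 1 gene of the 10 in GRP2/MP3 against PFMP. With the batch number as a replicate block, Tnf passed (adjusted p = 0.0385, limma), and 0.999% of all genes were called higher. With that block and no filter on low values, Tnf did not pass (adjusted p = 0.0995, limma), as 0% of all genes did.

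Without batch 3 the same comparison called Tnf, 4.57 ± 0.80 higher (adjusted p = 0.00684, limma), and Il1a, 3.84 ± 0.95 higher (adjusted p = 0.0465). Here 9 of the 10 genes were tested, all but Il10, and 1.5% of all genes were called higher. Tnf and Il1a each reached 1 RPKM in all 6 CD140a- libraries but in only 3 of the other 9, so both passed the filter, which asks for 4 libraries, only through the populations where they were high. With no filter, a setting chosen after the values were seen, Tnf was still called (adjusted p = 0.0198, limma) and Il1a was not (adjusted p = 0.109), with 0.613% of all genes called higher. Without batch 3 and with the replicate block, Tnf (adjusted p = 0.00334), Il1a (0.0187) and Il1rn (0.0449, 2.03 ± 0.53) were called by limma, and 2.05% of all genes were called higher. In that fit Tnf was also called in GRP2/MP3 against NSC, at 4.54 ± 1.04 (adjusted p = 0.0241, limma), where 0.585% of all genes were called higher. Without the filter that block fit called Tnf in the CD140a- against the CD140a+ progenitors (adjusted p = 0.0179, limma; 0.771% of all genes called higher), and neither Il1a (0.0666) nor Il1rn (0.0935), and in GRP2/MP3 against NSC Tnf had an adjusted p of 0.0798.

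**Figure D2:**
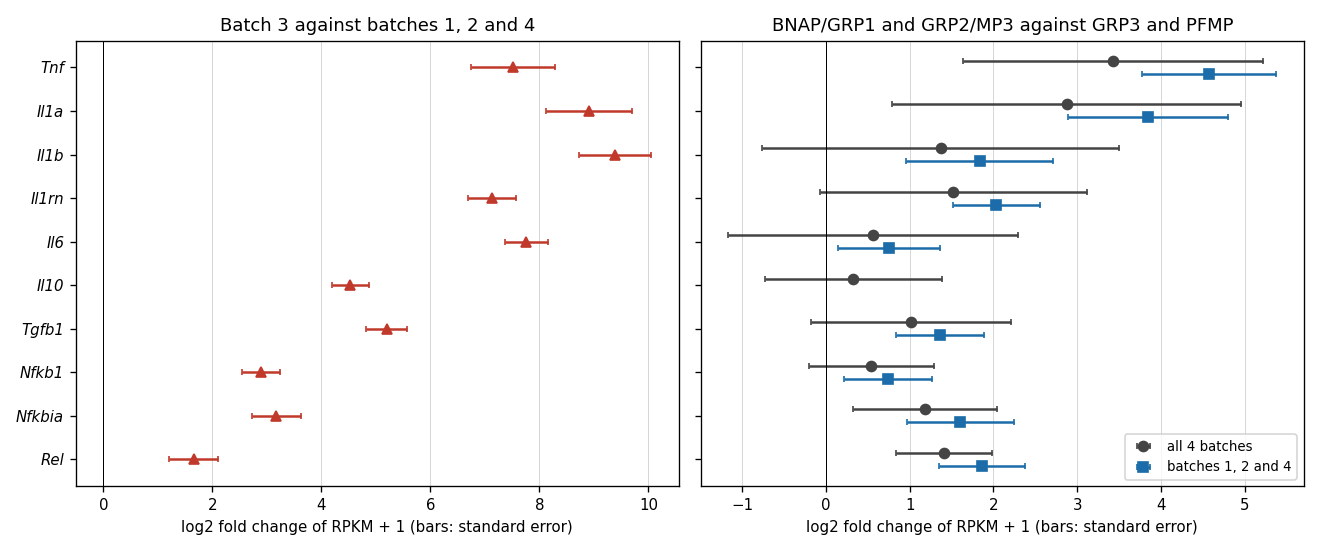
Log2 fold changes of RPKM + 1 with standard errors for the 10 genes, on the left for batch 3 against the other batches and on the right for BNAP/GRP1 and GRP2/MP3 against GRP3 and PFMP, with all batches and without batch 3. All 10 values on the left are above 0, from 1.66 for Rel to 9.39 for Il1b, and on the right Tnf and Il1a have the largest values and narrower errors without batch 3.

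BNAP/GRP1 4 had the lowest relative depth and the highest median over all genes. The comparison was therefore repeated without it and batch 3, and with batches 1 and 2 alone, both chosen after the values were seen. Without BNAP/GRP1 4 and batch 3, Tnf, Il1a and Nfkbia were called higher in the CD140a- progenitors against the CD140a+ progenitors (2.12% of all genes), and Tnf against NSC in BNAP/GRP1 (0.502%) and in GRP2/MP3 (0.787%). Nfkbia was 2.23 ± 0.47 higher there (adjusted p = 0.0196, limma). Tnf and Il1a again passed the filter only through the CD140a- libraries. Without the filter Tnf (adjusted p = 0.0144, limma) and Nfkbia (0.0342) were called against the CD140a+ progenitors and Il1a was not (0.051), with 0.679% of all genes called higher, and none of the 10 was called against NSC. With batches 1 and 2 alone, 8 of the 10 genes passed the filter on low values and 5 were called higher in the CD140a- progenitors, where 5.12% of all genes were called higher. They were Tnf (5.71 ± 0.85), Il1a (5.34 ± 0.86), Rel (2.33 ± 0.39), Nfkbia (2.20 ± 0.48) and Il1rn (2.15 ± 0.32), with adjusted p from 0.00362 to 0.0191 in limma. All but Nfkbia passed the filter only through the 4 CD140a- libraries, since Tnf and Il1a reached 1 RPKM in 1 of the other 6 libraries and Rel and Il1rn in 2. With no filter all 10 genes were tested and the same 5 were called, with adjusted p from 0.0202 to 0.0417 in limma, where 1.41% of all genes were called higher. Against NSC, Tnf, Il1a, Il1rn and Rel were called in BNAP/GRP1 (1.77% of all genes called higher) and in GRP2/MP3 (2.51%), but without the filter only Il1rn was called in BNAP/GRP1 (0.507%) and only Rel in GRP2/MP3 (0.859%). The same 5 genes had all 4 CD140a- libraries above all 6 NSC, GRP3 and PFMP libraries of these batches, as 3.1% of the 27614 genes did. Batches 1 and 2 gave 2 libraries per population, so each value rests on few samples.

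**Figure D3:**
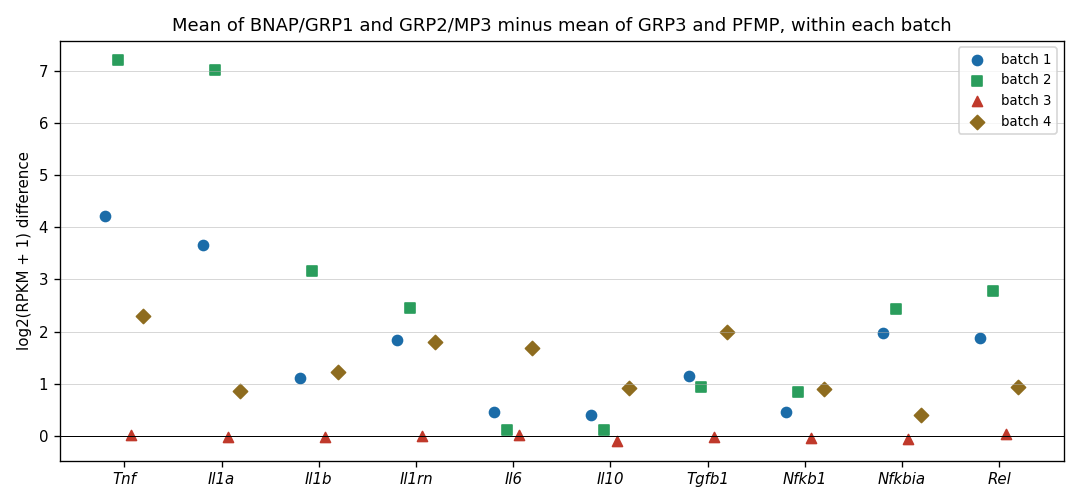
Difference in mean log2(RPKM + 1) between BNAP/GRP1 with GRP2/MP3 and GRP3 with PFMP within each batch, with 1 point per gene and batch. All 10 genes lie above 0 in batches 1, 2 and 4, and all lie near 0 in batch 3, where 3 of 10 are above it. In batch 4, BNAP/GRP1 was the highest library for 66.8% of all genes tested.

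Within batches, the difference for Tnf was 4.21 in batch 1, 7.22 in batch 2, 0.01 in batch 3 and 2.29 in batch 4 on the log2 scale. The median difference over the 10 genes was 1.49, 2.45, -0.02 and 1.08 in batches 1 to 4. No such difference was computed over all genes. The values of batch 4 lean on BNAP/GRP1 4, whose median over all genes was 8.30 RPKM. That median was 2.02 RPKM in GRP3 4 and 0.0079 RPKM in PFMP 4, so values above 0 in batch 4 do not set the 10 genes apart. In each of batches 1, 2 and 4, the highest library of every one of the 10 genes was BNAP/GRP1 or GRP2/MP3, as was so for 15.5% of the genes tested. That count says little in batch 4, where BNAP/GRP1 4 was the highest library for 9 of the 10 genes but also for 66.8% of all genes tested. In batches 1 and 2 GRP2/MP3 was the highest library for 6 of the 10 and BNAP/GRP1 for 4.

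Markers of microglia moved with these differences. The 20 microglia markers summed to between 4232 and 15703 RPKM in the CD140a- libraries of batches 1 and 2, with all 20 at 1 RPKM or more, and to between 32.3 and 67.5 RPKM in the other populations of these batches. In batch 4 the sum was 273.6 RPKM in BNAP/GRP1, 1034 in GRP2/MP3 and 66.4 to 175.7 in the other populations. In BNAP/GRP1 4 the 20 markers lay between 4.91 and 32.8 RPKM each, around that library's median of 8.30 RPKM over all genes. All 20 markers were called higher in the CD140a- progenitors with batches 1 and 2 alone (5.12% of all genes), and 19 without batch 3 (1.5%). Some of them, such as Cx3cr1, P2ry13 and Spi1, passed the filter only through the CD140a- libraries in both settings, so these counts lean on the filter. In bulk samples, a larger share of such cells and more RNA per cell cannot be told apart, and the part of microglia in the values of the 10 genes was not tested. Tnf did not follow the sum in proportion. It was 0.227% and 0.228% of the microglia sum in BNAP/GRP1 1 and GRP2/MP3 1, and 3.44% and 6.63% in BNAP/GRP1 2 and GRP2/MP3 2. In batch 3 it was 26.1 to 28.3% of the sum, where the sum came almost wholly from the 11 markers that were high in that batch, and the other 9 were at most 2.46 RPKM each. Markers of pericytes also moved, with 4 of 8 called higher without batch 3 (1.5% of all genes), but mainly in GRP2/MP3. They summed to 515, 458 and 7345 RPKM in GRP2/MP3 1, 2 and 4. In BNAP/GRP1 1 and 2 the sums were 9.35 and 40.4 RPKM, below the 127 and 100 RPKM of GRP3 1 and 2. Cspg4 of the same list went the other way in batches 1 and 2, with 0.249 to 9.64 RPKM in the CD140a- and 23.5 to 145.5 RPKM in the CD140a+ libraries.

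**Figure D4:**
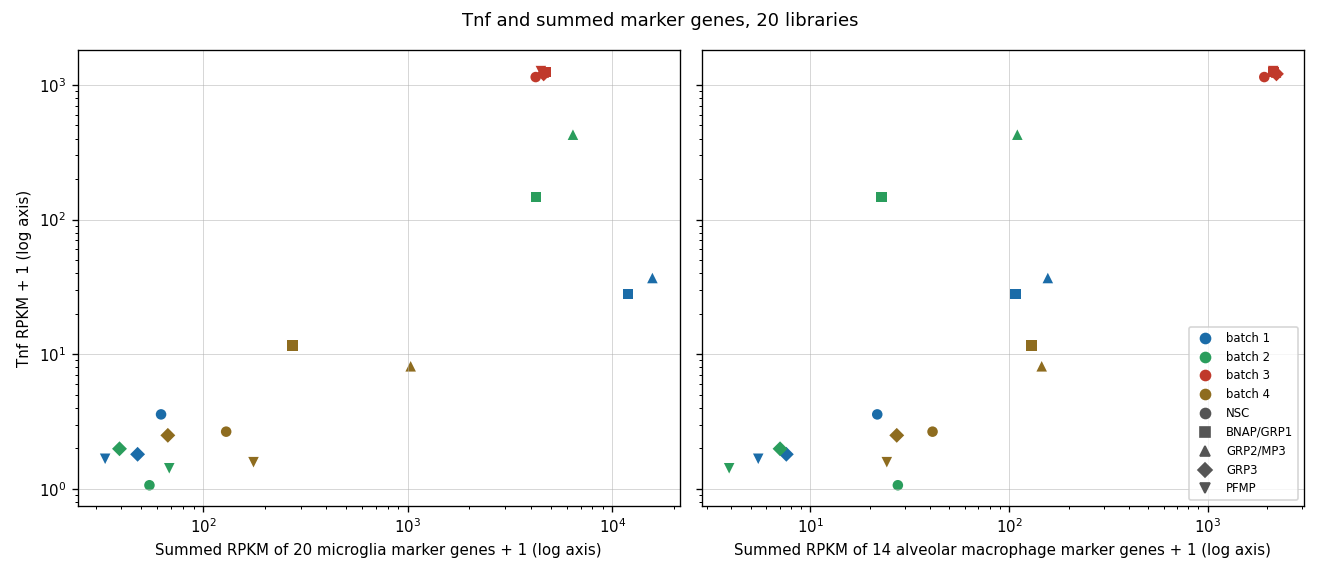
Tnf RPKM + 1 against the summed RPKM + 1 of the 20 microglia markers (left) and of the 14 measured alveolar macrophage markers (right) in 20 libraries, on log axes, with colours for batches and symbols for populations. The batch 3 libraries form 1 tight group at 1143 to 1266 RPKM of Tnf, at a microglia sum below those of batch 1 CD140a- libraries and an alveolar macrophage sum above all other libraries.

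Batch 3 was set against the mean of the other batches in a model with terms for population and batch. All 10 genes were called higher, as were 12.5% of the genes tested. The test counts the 5 nearly alike libraries of batch 3 as 5 samples, although they are 1 batch. Errors and p-values of this and the other batch contrasts thus measure spread between libraries and not between batches. Il10 reached 1 RPKM in only 3 of the 15 libraries outside batch 3, so it passed the filter only through batch 3, and with no filter it was called as well (adjusted p = 5.75e-08, limma). In the values themselves, 9 of the 10 (all but Rel) had all 5 libraries of batch 3 above the other 15, as 5.18% of genes did. The log2 fold changes were 9.39 ± 0.67 for Il1b, 8.91 ± 0.79 for Il1a, 7.76 ± 0.39 for Il6, 7.52 ± 0.77 for Tnf and 7.13 ± 0.44 for Il1rn. They were 5.20 ± 0.37 for Tgfb1, 4.53 ± 0.34 for Il10, 3.17 ± 0.45 for Nfkbia, 2.89 ± 0.35 for Nfkb1 and 1.66 ± 0.44 for Rel. The largest adjusted p was 0.00748, for Rel. The median over the 10 was 6.17, against -0.64 over all genes. Without batch 4, all 10 were again called. The batches are given by number only in the labels, so whatever else differed between batches cannot be told apart from the number.

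In batch 1, 6 of the 10 were called lower than in the other batches (3.97% of all genes), in batch 2 it was 5 (3.39%) and in batch 4 it was 8 (8.11%). Each of these contrasts holds batch 3 among the other batches. Il1b, Il1rn, Il6 and Tgfb1 were lower in all 3 contrasts. Quantile normalization moved the median over all genes from -0.64 to -0.19 in batch 3 and from 0.22 to 0.01 between the CD140a- and CD140a+ progenitors, and all 10 genes kept values above 0 in both.

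The receptors and partners of these cytokines were followed in 7 lists, which hold none of the 10 genes. Between the CD140a- and CD140a+ progenitors, 0 genes of any list passed with all libraries, and the largest value was that of Pycard (3.54 ± 0.77), the adaptor that links inflammasome sensors to caspase-1. Without batch 3, 1.5% of all genes were called higher, and this share stands beside each count below for that fit. In the IL-1 pathway 4 of 15 genes were called higher, led by Pycard (4.74 ± 0.70), Casp1 (3.04 ± 0.60), which encodes the protease that activates IL-1 beta, and the inflammasome sensor Nlrp3 (2.72 ± 0.57). In the TNF pathway 1 of 10 tested genes was called, the receptor Tnfrsf1b (2.67 ± 0.54). In the IL-6 pathway 2 of 9 were called, the related cytokine Osm (4.22 ± 0.89) and the receptor Il6ra (2.15 ± 0.47). Both receptor chains of interleukin 10, Il10ra (2.95 ± 0.54) and Il10rb (2.35 ± 0.43), were called among 5 genes.

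In the TGF-beta pathway 1 of 14 genes was called higher without batch 3 (1.5% of all genes), Nrros (3.57 ± 0.71), which anchors latent TGF-beta 1 on microglia and macrophages. In the NF-kB machinery 2 of 18 were called, Nfkbid (3.01 ± 0.51), an atypical IkB protein, and Tnfaip3 (2.75 ± 0.59), which encodes the feedback inhibitor A20. Among 11 tested NF-kB target genes 4 were called, with Icam1 (3.17 ± 0.47), an adhesion molecule, Csf1 (2.95 ± 0.60), the growth factor of macrophages, and Cd83 (2.86 ± 0.54) in front. No gene of the 7 lists was called lower there. Of the 17 genes called in these lists and in the list of immediate early and dissociation response genes, 7 (Casp1, Nlrp3, Tnfrsf1b, Osm, Il10ra, Nfkbid and Icam1) passed the filter only through the CD140a- libraries, and with no filter 15 genes of these lists were called (0.613% of all genes called higher), these 7 among them. The medians of the lists were 0.30 to 1.87, beside 0.29 over all genes. The list of immediate early and dissociation response genes had 1 of 18 called, Atf3 (3.84 ± 0.71), with a median of 0.68.

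In batch 3 against the other batches, 3 of the 68 genes of these lists called in either direction (Lta, Lif and Nos2) passed the filter only through batch 3. Of all genes, 12.5% were called higher in this contrast. The TNF pathway had 10 of 11 genes called higher, led by Tnfrsf1b (5.45 ± 0.49), Birc3 (4.47 ± 0.42), an inhibitor of apoptosis, and Ltb (3.97 ± 0.65). The NF-kB machinery had 12 of 18 called higher and 0 lower, led by Bcl3 (4.50 ± 0.44), Nfkb2 (3.81 ± 0.35) and Tnip1 (3.78 ± 0.39). The NF-kB target genes had 10 of 12 called higher and 1 lower, led by Tnfaip2 (6.75 ± 0.41), Ptgs2 (6.69 ± 0.46), which encodes cyclooxygenase-2, and Icam1 (4.37 ± 0.47). In the IL-1 pathway 6 of 15 were higher, led by Casp1 (4.41 ± 0.55), Irak3 (3.99 ± 0.41), which restrains receptor signalling, and Il18bp (3.90 ± 0.34). All 5 genes of the IL-10 pathway were higher, led by Il10rb (3.34 ± 0.39). The IL-6 pathway had 5 of 10 higher and 2 lower, led by Osm (3.87 ± 0.80), Jak1 (2.47 ± 0.32) and the feedback inhibitor Socs3 (2.14 ± 0.40).

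The TGF-beta pathway was mixed in batch 3, with 3 of 14 higher, Nrros (2.75 ± 0.65) and Tgfbr2 (1.97 ± 0.64) among them, and 2 lower, Itgb8 (-1.92 ± 0.34), part of the integrin that activates latent TGF-beta, among them. The immediate early and dissociation response list was mixed as well, with 8 of 18 higher and 4 lower, among them Atf3 (4.74 ± 0.69), Hspa1b (4.28 ± 0.36) and Egr1 (-4.32 ± 0.51). The medians of the 7 pathway lists were 0.16 to 3.27, beside -0.64 over all genes. Beside these, 13 of 14 tested alveolar macrophage markers, 8 of 11 lymphocyte markers, 5 of 8 lung epithelium markers, 5 of 11 neutrophil markers and 9 of 20 microglia markers were higher in batch 3, and all 10 oligodendrocyte progenitor markers were lower. Over all 27614 genes, 12.5% were called higher and 6254 genes lower. Some markers, such as Ear1, Chil3 and Scgb1a1, passed the filter only through batch 3, so these counts lean on the filter. The part of such cells in the values of the 10 genes was not tested.

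Genes with the most similar pattern were sought for each of the 10 by Pearson's r of log2(RPKM + 1) over the 20 libraries, which share their batches. For Tnf they were Ccrl2 (r = 0.989), Il1a (0.987) and Icam1 (0.985). Without batch 3 the first 3 for Tnf were again Il1a (0.969), Ccrl2 (0.965) and Icam1 (0.956), over 15 libraries. After population and batch means were taken out, Ccrl2 (0.957) and Il1a (0.955) still led for Tnf. For Rel they were Pik3cd (0.969), Il10ra (0.967) and Arid3a (0.965), and without batch 3 Arid3a (0.966), Gm26740 (0.962) and Tnfaip3 (0.960).

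For Il1b the 3 genes were Ptgs2 (0.969), Cxcl16 (0.963) and H2-Eb1 (0.962) with batch 3, and Dusp2 (0.855), Zfp839 (0.840) and Gm11425 (0.830) without it. For Il6 they were Cxcl3 (0.996), Gm26584 (0.994) and Csf3 (0.994) with batch 3, and for Il1rn Bst1 (0.991), Gp49a (0.990) and Tnfaip2 (0.988). For Il10 they were Gm29371 (0.996), Fcmr (0.995) and Pou2af1 (0.995), the last 2 being genes of B lymphocytes, and for Tgfb1 Hcar2 (0.990), Sbno2 (0.989) and H2-DMb2 (0.988). For Il1a they were Tnf (0.987), AI662270 (0.977) and Tlr2 (0.975), for Nfkb1 Mfsd12 (0.965), Tmem189 (0.953) and Ripk2 (0.952), and for Nfkbia B2m (0.937), Ccl4 (0.936) and Ctsd (0.932). Among the 10 genes themselves, r ranged from 0.626 to 0.994 with a median of 0.879, and without batch 3 from -0.388 to 0.969 with a median of 0.545. Tnf and Il6 had r = 0.815 with batch 3 and 0.0981 without it, whereas Tnf and Il1a had 0.987 and 0.969.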

How the data were processed

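Per the labels and the study's methods, RNA of sorted cells was amplified from the polyA tail, sequenced, and processed by the authors with nf-core/rnaseq, FastQC 0.11.9, cutadapt 3.4, STAR 2.6.1 and Salmon 1.9.0 on GRCm38. The values used are the RPKM that the authors deposited for 45705 genes in 20 libraries, and the gene lengths and read totals behind them are not given in the sources used here. DESeq2 1.26.0 is named in the submitters' processing notes, and the authors left out 2 further experiments for low quality. The table holds 26 further unnamed columns, which were not used.

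Values were taken as log2(RPKM + 1), and a gene was tested where 4 or more libraries reached 1 RPKM (27614 genes, or 26663 without batch 3). The model was fitted with limma 3.58.1 in R 4.3.3 (eBayes with a trend) with 1 mean per population and no batch term, with Benjamini-Hochberg adjustment across the tested genes and 0.05 as the limit for a call. Batches were compared in a model with population and batch. Batch is named in the labels and shared by the 5 populations, so it entered as a replicate block in an alternative. After population means were removed, libraries of 1 batch correlated at medians of 0.337, 0.262, 0.769 and 0.581 in batches 1 to 4 (lowest 0.0341). Those of different batches correlated at a median of -0.254. Removing the means pushes that value below 0 by construction, so it does not bear on pairing. Litters were pooled, so a library is 1 pool of animals.

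As alternatives, the pseudocount was set to 0.1, the filter was dropped or raised to a mean of 5 RPKM, values were scaled by median of ratios or by quantiles, the trend was dropped from the prior, the model was limited to the populations compared, and each library, batch or population was left out. Batches 1 and 2 alone, batch 3 left out with BNAP/GRP1 4, batch 4 left out of the comparison of batch 3, and the replicate block or left-out batches with no filter, were chosen after seeing the data. All 10 genes are named, with up to 3 genes with the largest changes per pathway list and comparison among those past the threshold (otherwise the largest), and the 3 genes most similar to each of the 10. The genes and lists were chosen with earlier results of these data known. Relative depth was estimated from the steps of low values. Read numbers estimated with GENCODE vM21 gene lengths fell below 1 for values above 0, as low as 0.0549 for Il6 in PFMP 4. Their scale was therefore not usable, and no read numbers or counting intervals are given. Simulated data had noise drawn independently per library and no difference between batches beyond an added log2 shift of 4. There the comparison of batch 3 recovered 97% of 200 shifted genes among 25809. That of the CD140a- with the CD140a+ progenitors recovered 97.5%. Because the simulation lacks the batch differences of the real libraries, it does not give the power of the comparisons run here. Promoters and motifs were read with Python 3.11.15 and figures drawn with matplotlib 3.10.9. Siglec5 of the alveolar macrophage list is not in the table.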

Additional observations from a re-analysis of the deposited data

Results flagged for a closer look

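In 14 of the 50 groups formed by 1 of the 10 genes and the 4 libraries of 1 population, 1 library lay so far from the other 3 that Dixon's test at the 95% level marked it, and in all 14 that library was of batch 3. Chance marks about 1 group in 20, and the 10 genes are measured in the same libraries, so the groups are not independent. The share of marked groups over all genes was not computed. Batch 3 differed widely from the other batches, with 35.1% of all genes tested called, so the count does not set these 10 genes apart. Tnf stood at 1207 RPKM in GRP3 3 and 1266 RPKM in PFMP 3. Il1a stood at 2296 RPKM in NSC 3, 2514 RPKM in GRP3 3 and 2522 RPKM in PFMP 3, and Il1b at 4104 RPKM in GRP3 3. The antagonist Il1rn stood at 501.8 RPKM in PFMP 3. Il6 was at 435.6 RPKM in GRP2/MP3 3 and 433.8 RPKM in PFMP 3, and Il10 at 25.5 RPKM and 31.5 RPKM in the same libraries. Tgfb1 was at 81.9 RPKM in PFMP 3, Nfkbia at 481.8 RPKM in GRP3 3 and Rel at 9.81 RPKM in PFMP 3.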

How the results depend on the processing

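The count of genes called in the comparison of the CD140a- with the CD140a+ progenitors rose from 0 to 1 with the replicate block, to 2 with batch 3 left out, to 3 with batch 3 left out and the replicate block, to 3 with batch 3 and BNAP/GRP1 4 left out and to 5 with batches 1 and 2 alone. The share of all genes called higher was 0.999%, 1.5%, 2.05%, 2.12% and 5.12% in the same order. Only through the CD140a- libraries did 2 of the 2 genes pass the filter with batch 3 left out. The same held for 2 of the 3 without batch 3 and BNAP/GRP1 4, and for 4 of the 5 with batches 1 and 2 alone. In GRP2/MP3 against NSC the count rose from 0 to 1 with batch 3 left out and the replicate block, to 1 without batch 3 and BNAP/GRP1 4 and to 4 with batches 1 and 2 alone, and in BNAP/GRP1 against NSC to 1 and 4 in the last pair of settings. Of all genes, 0.585%, 0.787% and 2.51% were called higher in GRP2/MP3 there, and 0.502% and 1.77% in BNAP/GRP1. The replicate block changed no other count. With no filter as well, the counts between the CD140a- and CD140a+ progenitors were 0 with the block, 1 without batch 3 (with or without the block), 2 without batch 3 and BNAP/GRP1 4 and 5 with batches 1 and 2 alone, and those against NSC were 0, except for 1 in each CD140a- population when batches 1 and 2 stood alone. Of all genes, 0% were called with that block, and 0.771% and 0.613% were called higher without batch 3 (with and without the block). The shares were 0.679% without batch 3 and BNAP/GRP1 4 and 1.41% with batches 1 and 2 alone. Against NSC with batches 1 and 2 alone they were 0.507% in BNAP/GRP1 and 0.859% in GRP2/MP3. Pseudocount, filters, scalings, the prior, the populations in the model, single libraries and batches 1, 2 or 4 left out kept every count between populations at 0. In the comparison of batch 3 all 10 genes stayed called under the 12 alternatives run, and the counts in batches 1, 2 and 4 ranged over 4 to 7, 4 to 7 and 6 to 10. In the main fit 12.5% of all genes were called higher in batch 3, and 3.97%, 3.39% and 8.11% lower in batches 1, 2 and 4. Leaving out 1 batch 3 library of a CD140a- population unbalances the groups by construction: without BNAP/GRP1 3 or GRP2/MP3 3, the values of Il6 and Il10 in the CD140a- against the CD140a+ progenitors turned below 0. Over all single libraries left out, Il6 ranged from -0.38 to 1.62 and Il10 from -0.21 to 0.96, and Il1rn in GRP2/MP3 against NSC from -0.83 without GRP2/MP3 3 to 2.75 without NSC 3. Il10 and other genes near 1 RPKM are limited by depth, which is known only as an estimate. In BNAP/GRP1 4 they are limited also by the level over all genes, with a median of 8.30 RPKM and 38191 genes above 0. BNAP/GRP1 3, with the highest relative depth, had 20597 genes above 0.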
